A study of Mus musculus with 10 samples.

Results

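The 10 genes described here encode enzymes that build the lipid-linked glycan of N-glycosylation in the endoplasmic reticulum (ER): Dpagt1, Alg1, Alg2, Alg11, Alg3, Alg9, Alg12, Alg5, Alg6 and Alg8. They were taken by name from the 21900 protein-coding genes that RefSeq annotates on build GRCm38.p6 (mm10), and all 10 were found. A gene counted as carrying a peak where a summit lay inside its annotated span or within 5 kb of it. XBP-1 occupancy had been measured by chromatin immunoprecipitation and sequencing of mouse liver (C57BL/6J), in 8 libraries and 2 inputs. The groups were wild-type fasted mice (Fasted), wild-type fed mice (Fed), mice with a liver-specific knockout of Ern1 (Ern1-LKO) and wild-type control mice for that knockout (WT), with 2 libraries each. Libraries of every group were made with an antibody labelled Xbp-1s. The labels do not give the length of the fast, the feeding state of the Ern1-LKO and WT mice, their age, the driver of the Ern1 deletion or which libraries came from separate animals. Any p-value below therefore measures only the spread between these libraries, which may be technical.

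The enzymes act in sequence on dolichol phosphate, a lipid of the ER membrane. On the cytosolic face Dpagt1 attaches the first sugar phosphate, and Alg1, Alg2 and Alg11 add mannoses. After the lipid-linked sugar has been flipped into the lumen, Alg3, Alg9 and Alg12 add further mannoses. Alg6 and Alg8 then add glucoses taken from dolichol phosphate glucose, which Alg5 makes. The finished glycan is transferred to nascent proteins by the oligosaccharyltransferase. XBP-1 is the transcription factor of the unfolded protein response whose active form needs splicing of Xbp1 mRNA by Ern1, and hepatocytes secrete many N-glycosylated plasma proteins.

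The lists differed greatly in length, from 698 peaks in Ern1-LKO replicate 1 to 82975 in Fed replicate 1, on 4340956 to 17399899 tags after duplicate removal. List length did not follow the tags, since Ern1-LKO replicate 1 had 11995890 tags and 698 peaks, and Ern1-LKO replicate 2 had 4340956 tags and 30796 peaks. The Fasted and Fed libraries were called against a different input library from the Ern1-LKO and WT libraries, so groups were compared only within each of these batches. Peak lists hold neither RNA levels nor a measure of the Ern1 deletion, so they cannot check the tissue or the knockout. In whole liver, binding in fewer cells and weaker binding per cell cannot be told apart. Of 38 marker genes of 6 liver cell types, 0 had a peak in Ern1-LKO replicate 1, beside 3.58% of all protein-coding genes. The largest count was 25, in Fasted replicate 1 and Fed replicate 1, beside 73.0% and 76.1%. In all 8 libraries 0 markers had a peak, beside 2.63% of all genes, a share too small for 38 genes to tell apart from 0.

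Each promoter window printed below holds summits of a region marked in at least 5 libraries. The windows of Creld2, Alg5 and Exosc8 hold such summits too and are not printed. The windows run from 250 bases before to 50 bases after the annotated start, 5′ to 3′ along the named gene's strand, from RefSeq on GRCm38.p6. Of the 10 genes, 7 had such a window, and for Alg2 and Alg11 the window of the neighbouring gene that shares the peak is given. In the Alg12 window (chr15:88819269-88819568, minus strand) capitals mark the ER stress response element (ERSE). In the Alg6 window (chr4:99715380-99715679, plus strand) they mark the reverse complement of GCCACGT. In the Atp7b window (chr8:22060025-22060324, minus strand), next to Alg11, they mark CCACG. The Sec61b window (chr4:47474411-47474710, plus strand), next to Alg2, holds none of the motifs searched and has no capitals.
Alg12: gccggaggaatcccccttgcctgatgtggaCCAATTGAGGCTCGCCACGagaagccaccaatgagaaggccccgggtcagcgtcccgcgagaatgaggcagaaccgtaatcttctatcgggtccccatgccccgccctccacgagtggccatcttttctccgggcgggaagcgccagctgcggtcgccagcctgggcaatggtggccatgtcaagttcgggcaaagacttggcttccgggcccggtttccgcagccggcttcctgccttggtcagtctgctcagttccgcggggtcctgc
Alg6: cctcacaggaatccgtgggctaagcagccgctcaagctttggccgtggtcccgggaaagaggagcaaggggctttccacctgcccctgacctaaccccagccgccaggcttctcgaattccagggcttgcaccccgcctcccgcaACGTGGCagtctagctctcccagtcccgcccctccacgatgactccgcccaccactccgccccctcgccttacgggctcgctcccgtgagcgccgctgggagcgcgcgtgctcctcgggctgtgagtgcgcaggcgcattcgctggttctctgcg
Atp7b: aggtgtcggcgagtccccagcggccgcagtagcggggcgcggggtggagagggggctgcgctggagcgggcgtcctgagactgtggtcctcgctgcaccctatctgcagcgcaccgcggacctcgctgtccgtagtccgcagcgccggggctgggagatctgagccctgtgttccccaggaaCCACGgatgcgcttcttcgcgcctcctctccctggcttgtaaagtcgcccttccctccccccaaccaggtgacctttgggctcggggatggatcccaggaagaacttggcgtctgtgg
Sec61b: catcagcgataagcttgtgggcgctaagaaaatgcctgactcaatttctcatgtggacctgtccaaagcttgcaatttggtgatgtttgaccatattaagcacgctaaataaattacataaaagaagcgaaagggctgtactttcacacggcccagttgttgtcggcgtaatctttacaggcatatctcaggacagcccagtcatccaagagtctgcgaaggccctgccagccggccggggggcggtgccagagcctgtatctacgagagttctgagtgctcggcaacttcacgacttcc

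Motifs were searched on both strands of 32851 promoter windows of 300 bases. ERSE was written as CCAAT and CCACG with 9 bases between them and was found in 0.119% of windows. ERSE-II, written as ATTGG and CCACG with 1 base between them, was found in 0.0365%. GCCACGT was found in 2.58%, TGACGTG, the core of the unfolded protein response element, in 2.01%, and CCACG, which ERSE, ERSE-II and GCCACGT contain, in 32.8%. Among the 7 windows of the members, 1 held ERSE (Alg12), 1 held GCCACGT (Alg6), 4 held CCACG (Alg1, Alg5, Alg6 and Alg12), and 0 held ERSE-II or TGACGTG. A match describes the letters and does not show a bound site.

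Across the libraries, 9 and 4 of the 10 genes had a peak in the Fasted libraries, 10 and 9 in the Fed, 3 and 7 in the Ern1-LKO and 5 and 9 in the WT libraries (replicate 1 and replicate 2 in each). Of all protein-coding genes, 73.0% and 43.5% had one in the Fasted libraries, 76.1% and 71.2% in the Fed, 3.58% and 62.4% in the Ern1-LKO and 19.6% and 65.0% in the WT libraries. The share of the 10 genes thus lay near that of all genes in Fasted replicate 2, where 4 of 10 stood beside 43.5%. In Ern1-LKO replicate 2 it was also near, with 7 of 10 beside 62.4%. In the other libraries it lay above that of all genes, which was not tested. In the shortest lists it was 3 of 10 beside 3.58% (Ern1-LKO replicate 1) and 5 of 10 beside 19.6% (WT replicate 1). Among longer lists it was 10 of 10 beside 76.1% in Fed replicate 1 and 9 of 10 beside 65.0% in WT replicate 2. It was 9 of 10 beside 73.0% in Fasted replicate 1 and beside 71.2% in Fed replicate 2. In these longer lists most genes have a peak, so 10 genes leave little room for a difference. Of the 3 genes in Ern1-LKO replicate 1, Alg2 and Alg12 share their peak with Sec61b and Creld2. The median span of the 10 genes was 12682.5 bases (4535 to 68415), against 17146 for all protein-coding genes. Whether span length bears on these shares was not tested.

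**Figure D1:**
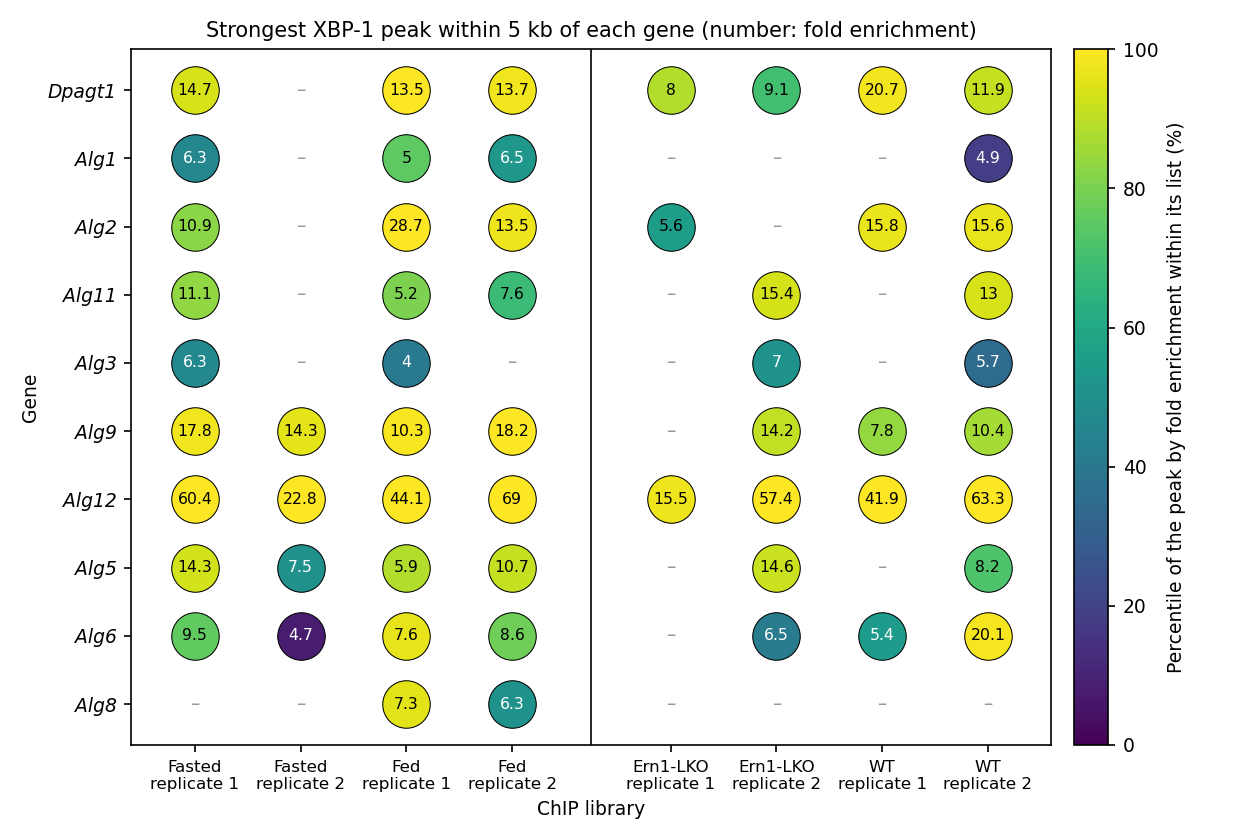
Fold enrichment of the strongest XBP-1 peak within 5 kb of each gene (rows) in each ChIP library (columns). The number is the authors' fold enrichment, the colour the percentile of that peak by fold within its own list, and a dash marks no peak; Alg12 is marked in all 8 libraries and Alg8 only in Fed.

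Dpagt1, which starts the pathway and is the target of tunicamycin, had a peak in 7 libraries (chromosome 9, 44325857 to 44333895). Its strongest peak had a fold enrichment, the authors' ratio of treatment pileup to local background, of 14.7 in Fasted replicate 1, and no peak was called in Fasted replicate 2. The Fed values were 13.5 and 13.7, the Ern1-LKO values 8.0 and 9.1, and the WT values 20.7 and 11.9. Folds are properties of a peak within its list and were not compared between libraries. In Fasted replicate 1 and Fed replicate 2 the strongest of these peaks lay past the upper end of the gene, at 44335407 and 44335464, inside the span of the histone gene H2ax.

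Inside the Dpagt1 span the summits fell at a pair of positions. The lower one, 646 to 660 bases from the lower end of the span, held a summit in Fed replicate 1, Ern1-LKO replicate 1 and both WT libraries. Its 4 summits lay within 14 bases of each other (44326503 to 44326517). The peak of Fed replicate 1 (44326143 to 44327402) covered both positions, and that of WT replicate 1 reached 44326992. A call has 1 summit, so these peaks do not show that only the lower position was bound. The upper one, 1050 to 1143 bases from the lower end of the span (44326907 to 44327000), held a summit in Fasted replicate 1, Fed replicate 2, Ern1-LKO replicate 2 and WT replicate 2. At the lower position the peak of Fed replicate 1 ranked 336 of 82975, that of Ern1-LKO replicate 1 ranked 81 of 698, and that of WT replicate 1 ranked 108 of 6258. In WT replicate 2, where both were called as separate peaks, the upper had a fold of 11.9 and the lower 6.8. The positions were 390 bases apart. The summits did not divide the libraries by feeding or by genotype, since each group with peaks in both libraries had summits at both positions. They did follow the replicate number in those groups. The strongest summit inside the span was the lower in replicate 1 of Fed, Ern1-LKO and WT, and the upper in replicate 2 of each. In Fasted replicate 1 it was the upper. The reason was not tested.

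**Figure D2:**
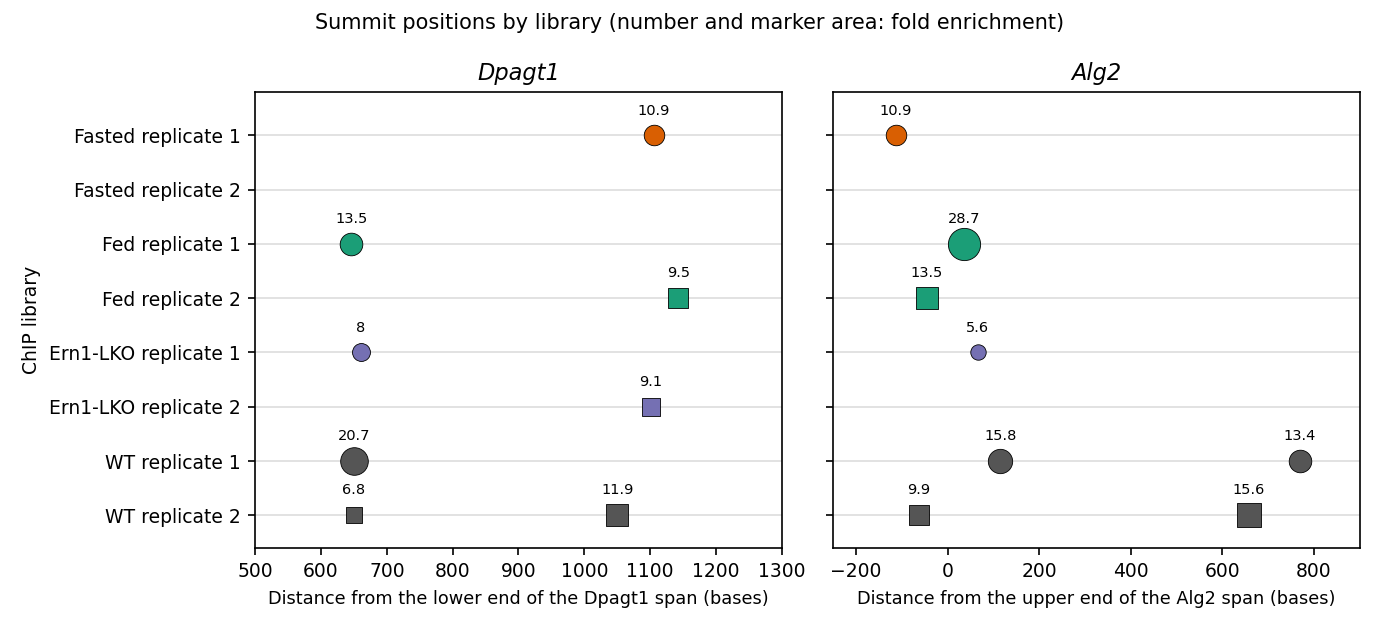
Summit positions of the peaks inside the Dpagt1 span (left, bases from the lower end of the span) and at Alg2 (right, bases from the upper end of the span), 1 row per library, with marker area and number giving the authors' fold enrichment. Dpagt1 summits gather at 646 to 660 and at 1050 to 1143 bases, and 1 library, WT replicate 2, has a called summit at both.

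Alg1, which adds the first mannose, carried a weak peak at its start (chromosome 16, 5233621 to 5244909). The summit lay 52 to 121 bases past the annotated start in 4 libraries, with folds of 6.3 in Fasted replicate 1, 5.0 and 6.5 in the Fed libraries and 4.9 in WT replicate 2. None was called there in Fasted replicate 2, in either Ern1-LKO library or in WT replicate 1. These peaks ranked 29062 of 53973 in Fasted replicate 1, 20720 of 82975 and 22215 of 47357 in Fed, and 24769 of 30327 in WT replicate 2. CCACG on the opposite strand at 43 to 47 bases past the start lay 7 to 76 bases from these summits, counted from its centre.

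Alg2, a mannosyltransferase of the cytosolic face, lies beside Sec61b, a subunit of the Sec61 translocon, with 293 bases between their spans (Alg2, chromosome 4, 47469833 to 47474367). The strongest peak there had a fold of 10.9 in Fasted replicate 1 and was absent from Fasted replicate 2. In Fed it had folds of 28.7 and 13.5, in Ern1-LKO replicate 1 a fold of 5.6, and in WT 15.8 and 15.6. No peak was called in Ern1-LKO replicate 2, although that list holds 30796 peaks. This strongest peak ranked 9399 of 53973 in Fasted replicate 1, 101 of 82975 and 1154 of 47357 in Fed, 312 of 698 in Ern1-LKO replicate 1, and 207 of 6258 and 978 of 30327 in WT. Summits of 2 libraries, Ern1-LKO replicate 1 and WT replicate 1, fell inside the printed Sec61b window. Each WT library had 2 peaks in the region. In WT replicate 1 the strongest, with a fold of 15.8, lay 115 bases past the upper end of Alg2, and the other, with a fold of 13.4, lay 769 bases past it. In WT replicate 2 the strongest, with a fold of 15.6, lay 657 bases past that end, and the other, with a fold of 9.9 and rank 4980, lay 63 bases inside the gene. A peak list has no strand, so the peak cannot be given to Alg2 or to Sec61b.

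Alg11, the other mannosyltransferase of the cytosolic face, lies 646 bases from Atp7b, a copper-transporting ATPase (Alg11, chromosome 8, 22060721 to 22071627). A peak between the spans was called in 5 libraries, with folds of 11.1 in Fasted replicate 1, 5.2 and 7.6 in Fed, 15.4 in Ern1-LKO replicate 2 and 13.0 in WT replicate 2. It was absent from Fasted replicate 2, Ern1-LKO replicate 1 and WT replicate 1. The strongest summits lay between 22060189 and 22060306, inside the printed Atp7b window, and 49 to 166 bases from the centre of its CCACG.

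Alg3, which adds the first luminal mannose (chromosome 16, 20605458 to 20610761), had no summit within 1 kb of its annotated start in any library. Its 7 summits lay 5053 to 10027 bases downstream of the start, at the far end of the gene and in the neighbouring gene Vwa5b2. Their folds were low. The strongest had a fold of 6.3 in Fasted replicate 1 and 4.0 in Fed replicate 1. Ern1-LKO replicate 2 reached 7.0 and WT replicate 2 reached 5.7. The other 4 libraries had none. By position, these 7 summits fell into 5 separate regions, of which 2 were seen in 2 libraries and 3 in 1 library.

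Alg9, also a mannosyltransferase of the lumen, is the longest of the genes (chromosome 9, 50775225 to 50843639, 68415 bases). Its start region was marked in 6 libraries by summits 230 to 287 bases past the annotated start. The folds were 17.8 and 14.3 in Fasted, 10.3 and 18.2 in Fed, 14.2 in Ern1-LKO replicate 2 and 10.4 in WT replicate 2. These same 6 libraries had a weaker peak inside the gene, 4858 to 4920 bases past the start. There the folds were 13.0 and 9.3 in Fasted, 5.5 and 6.0 in Fed, 7.8 in Ern1-LKO replicate 2 and 5.6 in WT replicate 2. Ern1-LKO replicate 1 had no peak at the gene. WT replicate 1 had none at the start, and its peaks lay 23337 and 59986 bases past it, with folds of 7.8 and 5.9.

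Alg12, another luminal mannosyltransferase, was the only one of the 10 genes with a peak in all 8 libraries (chromosome 15, 88805243 to 88819318). Of all protein-coding genes, 2.63% had one in all 8. Its folds were 60.4 and 22.8 in Fasted, 44.1 and 69.0 in Fed, 15.5 and 57.4 in Ern1-LKO, and 41.9 and 63.3 in WT. The peak ranked 14 and 32 in the Fasted lists, 19 and 16 in the Fed lists, 18 and 15 in the Ern1-LKO lists, and 7 and 18 in the WT lists. It thus stood among the 32 strongest peaks of every list, whether the list held 698 peaks or 82975. The span of Creld2, an ER-resident protein of the unfolded protein response transcribed in the opposite direction, starts 327 bases away, and the summits of all 8 libraries lie between the 2 genes. The peak therefore cannot be given to either gene alone.

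The printed ERSE lies in the region covered by this peak. It spans 88819520 to 88819538, which is 220 to 202 bases before the Alg12 start and 126 to 108 bases before the Creld2 start. The distance from its centre to the summit was 19 and 107 bases in Fasted, 3 and 14 bases in Fed, 30 and 35 bases in Ern1-LKO, and 17 and 26 bases in WT. In Fed replicate 1 the summit was inside the element. Summits of 7 libraries lay within 38 bases of each other, and that of Fasted replicate 2, at 88819636, lay apart from them.

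Alg5, which makes dolichol phosphate glucose (chromosome 3, 54735539 to 54749795), lies 174 bases from Exosc8, an exosome subunit, which is transcribed in the opposite direction. A peak there was called in 6 libraries, with folds of 14.3 and 7.5 in Fasted, 5.9 and 10.7 in Fed, 14.6 in Ern1-LKO replicate 2 and 8.2 in WT replicate 2. It was absent from Ern1-LKO replicate 1 and WT replicate 1. In 5 libraries the strongest summit lay 580 to 609 bases before the Alg5 start, and in Fed replicate 2 it lay 305 bases before it. All of these strongest summits lay inside the Exosc8 span, and the peak cannot be given to either gene alone. Ern1-LKO replicate 2 had another summit 8 bases before the Alg5 start, with a fold of 9.9.

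Alg6, which adds the first glucose (chromosome 4, 99715596 to 99763460), had a start peak in 7 libraries and has no neighbouring gene within 1 kb of it. Its folds were 9.5 and 4.7 in Fasted, 7.6 and 8.6 in Fed, 6.5 in Ern1-LKO replicate 2, and 5.4 and 20.1 in WT. None was called in Ern1-LKO replicate 1. The WT replicate 2 peak ranked 433 of 30327, and the Fasted replicate 2 peak 17682 of 19237. In Fed replicate 2 and WT replicate 2 the summits lay 113 and 118 bases before the annotated start, 11 and 16 bases from the centre of the printed GCCACGT match. In the other 5 libraries they lay 105 to 211 bases past the start and 207 to 313 bases from that match.

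Alg8, which adds the next glucose (chromosome 7, 97371567 to 97392159), had a peak in the Fed libraries only, and at different places. The summit lay 188 bases past the start in Fed replicate 1, with a fold of 7.3, and 3830 bases before it in Fed replicate 2, with a fold of 6.3. The call in both Fed libraries therefore rests on no shared site. With summits limited to 1 kb from a gene end, the genes marked in both libraries numbered 4 in Fasted (25.4% of all genes) and 7 in Fed (52.9%). For Ern1-LKO that number was 1 (2.44%) and for WT 4 (10.3%).

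**Figure D3:**
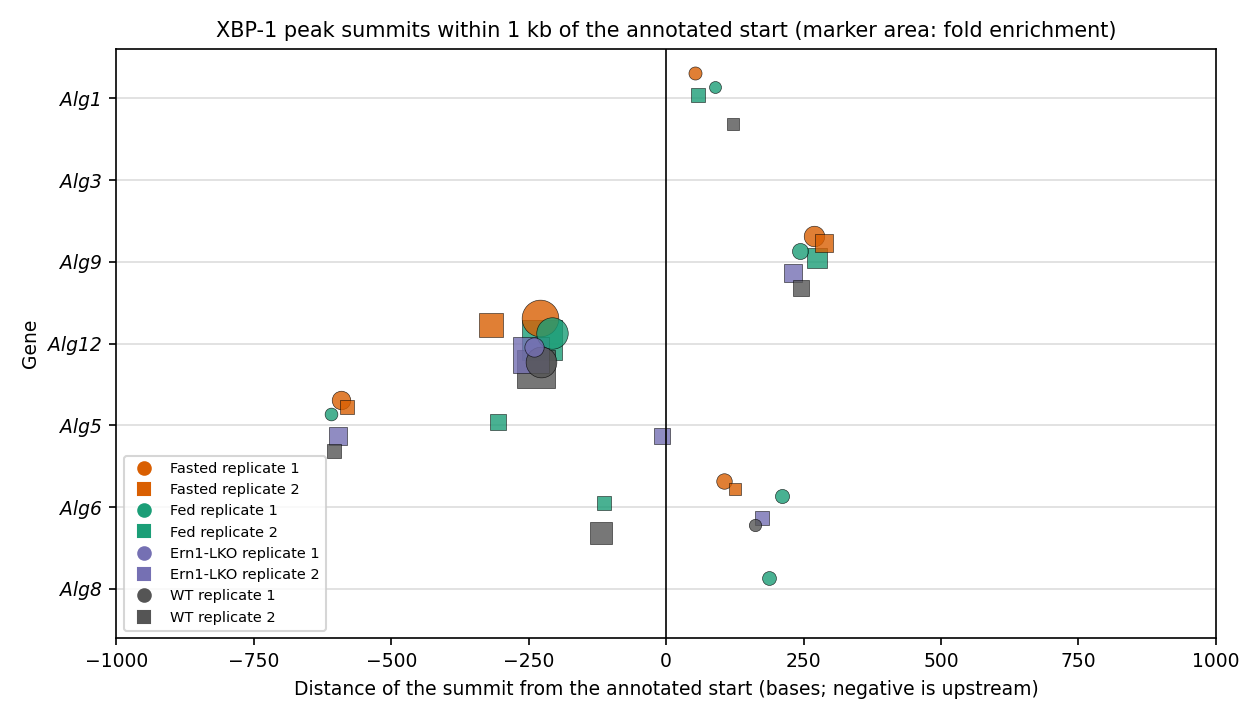
Distance of peak summits from the annotated start (x axis, bases, negative upstream) for the 7 genes with an annotated start, within 1 kb of it, coloured by group, with circles for replicate 1, squares for replicate 2 and marker area for the authors' fold enrichment. The 8 Alg12 summits lie 208 to 318 bases upstream, the 6 Alg9 summits 230 to 287 bases downstream, and Alg3 has none.

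In all, the 8 libraries held 90 summits at the 10 genes, and 59 of them (65.6%) lay within 1 kb of a gene end. Merging peaks that overlapped by at least 1 bp gave 29 regions, of which 10 were seen in at least 4 libraries and 14 in 1 library. Of those 14, 10 came from Fed replicate 1, the longest list. Among genes with any peak in a library, the percentile of the strongest peak had a median of 83.5% and 73.1% over the members with a peak in Fasted, against 82.6% and 55.9% over all such genes. The Fed medians were 95.8% and 91.1% for the members and 88.4% and 79.0% for all such genes. For Ern1-LKO the members were at 88.5% and 91.0%, against 51.3% and 76.8%, and for WT at 96.7% and 91.4%, against 56.1% and 75.5%. These medians cover 3 to 10 members and describe the libraries.

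Fasted and Fed livers were set against each other to compare binding at these genes between feeding states. Both Fasted libraries marked 4 of the 10 genes (Alg9, Alg12, Alg5 and Alg6), beside 43.1% of all genes, and both Fed libraries marked 9, all but Alg3, beside 68.7%. The Fasted count was 9 without Fasted replicate 2, beside 73.0% of all genes. With 19237 top peaks by fold enrichment from each library, the length of the shortest list, 7 and 4 genes had a peak in Fasted and 8 and 7 in Fed. The means were 5.5 ± 2.12 in Fasted and 7.5 ± 0.71 in Fed (SD, n = 2 each), and the difference of -2.0 genes was not larger than the spread between libraries (exact two-sided permutation test, p = 0.667, smallest possible 0.33). At this number 54.2% and 43.5% of all genes had a peak in Fasted, and 53.6% and 53.1% in Fed. At 19237 top peaks the difference was -0.5 without Fasted replicate 2, the library with the fewest of these genes, a setting chosen after seeing the data, and -3.5 without Fasted replicate 1. Without Fasted replicate 2 the shortest list holds 47357 peaks, and at that number the difference was 0. With all peaks of each library it was -3.0 (6.5 ± 3.54 in Fasted and 9.5 ± 0.71 in Fed, exact permutation test, p = 0.667).

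With 698 top peaks per library, the length of the shortest of all lists, 1 and 1 gene remained in Fasted and 3 and 2 in Fed. The gene in Fasted was Alg12 in both libraries. Fed replicate 1 held Dpagt1, Alg2 and Alg12, and Fed replicate 2 held Alg9 and Alg12. The means were 1.0 ± 0 in Fasted and 2.5 ± 0.71 in Fed (SD, n = 2 each). The difference of -1.5 genes had the smallest p this design allows (exact permutation test, p = 0.333), and 3.79% and 2.31% of all genes in Fasted and 3.89% and 3.76% in Fed had a peak at this number. With all peaks, 0 members had a peak in both Fasted and neither Fed library, against 0.0731% of all genes. In both Fed and neither Fasted library the member count was 1, Alg8, against 1.2% of all genes. That count was 5 without Fasted replicate 1, where only Fasted replicate 2 had to lack a peak. Fasted replicate 2 had a peak at 43.5% of all genes, and the share of all genes under this wider rule was not computed. Among 19237 top peaks, both counts were 0, against 1.1% of all genes for Fasted only and 1.87% for Fed only, and among 698 top peaks both were 0, against 0.169% and 0.763%.

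**Figure D4:**
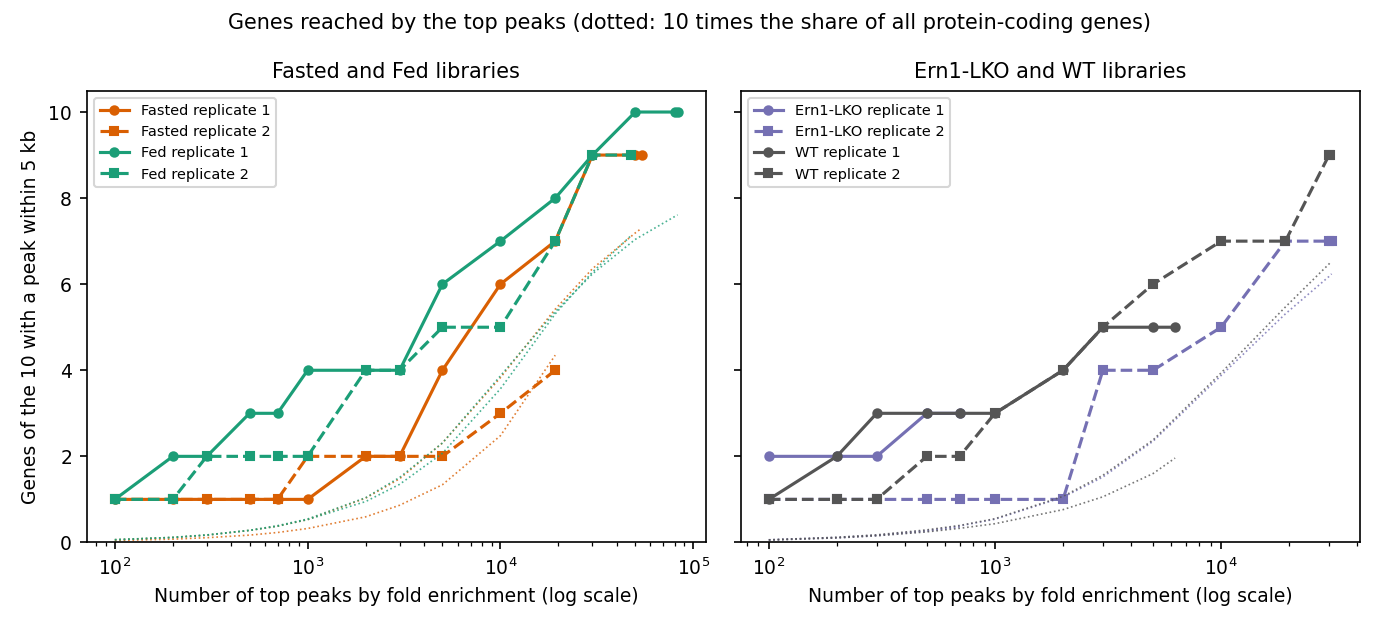
Number of the 10 genes with a peak within 5 kb (y axis) among increasing numbers of top peaks by fold enrichment (x axis, log scale), for Fasted and Fed libraries (left) and Ern1-LKO and WT libraries (right). Solid lines with circles are replicate 1, dashed lines with squares replicate 2, and dotted lines 10 times the share of all protein-coding genes; at 698 top peaks Fasted libraries hold 1 and 1 genes and Fed libraries 3 and 2.

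Ern1-LKO and WT livers were set against each other to compare binding with and without Ern1 in the liver. Both Ern1-LKO libraries marked 2 of the 10 genes (Dpagt1 and Alg12), beside 3.54% of all genes, and both WT libraries marked 5 (Dpagt1, Alg2, Alg9, Alg12 and Alg6), beside 18.2%. Without replicate 1 of the group these counts were 7 in Ern1-LKO and 9 in WT, beside 62.4% and 65.0% of all genes. Within WT the Alg9 peaks did not overlap between the libraries, and 4 genes had overlapping peaks. Within Ern1-LKO only the Alg12 peaks overlapped between the libraries, so 1 gene met that limit. Replicate 1 marked Dpagt1, Alg2 and Alg12, and replicate 2 marked Dpagt1 at the other position, Alg12, Alg11, Alg3, Alg9, Alg5 and Alg6, but not Alg2.

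With 698 top peaks per library, 3 and 1 genes had a peak in Ern1-LKO and 3 and 2 in WT. The means were 2.0 ± 1.41 in Ern1-LKO and 2.5 ± 0.71 in WT (SD, n = 2 each), a difference of -0.5 genes (exact two-sided permutation test, p = 1). Of all genes, 3.58% and 3.83% had a peak at this number in Ern1-LKO and 3.28% and 3.94% in WT. The 3 genes of Ern1-LKO replicate 1 and of WT replicate 1 were Dpagt1, Alg2 and Alg12 in both, the same as in Fed replicate 1. Ern1-LKO replicate 2 held Alg12 alone, and WT replicate 2 held Alg12 and Alg6. The difference turned to 0.5 without Ern1-LKO replicate 2 and was 0 without WT replicate 1, and was -1.0 without WT replicate 2. Without Ern1-LKO replicate 1 it was -1.5, both at 698 top peaks (chosen after seeing the data) and at 6258, the length of the shortest list then left. With all peaks of each library, where 3 and 7 genes had a peak in Ern1-LKO and 5 and 9 in WT, the means were 5.0 ± 2.83 in Ern1-LKO and 7.0 ± 2.83 in WT (SD, n = 2 each), a difference of -2.0 genes (exact two-sided permutation test, p = 0.667). No member (0) had a peak in both libraries of either genotype and in neither of the other, against 0% of all genes for Ern1-LKO only and 0.895% for WT only. Among 698 top peaks both counts were also 0, against 0.616% of all genes for Ern1-LKO only and 0.721% for WT only. The WT-only count was 1 without Ern1-LKO replicate 1, 2 without Ern1-LKO replicate 2 and 1 without WT replicate 1. The share of all genes was not computed without single libraries, so 0.895% does not apply to these counts.

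Other genes of the pathway were counted under the same rule. Of all protein-coding genes, 73.0% and 43.5% had a peak in Fasted and 76.1% and 71.2% in Fed. In Ern1-LKO 3.58% and 62.4% had one, in WT 19.6% and 65.0%, and in all 8 libraries 2.63%. Of 13 further genes of dolichol supply and lipid-linked assembly, 13 and 7 had a peak in Fasted, 13 and 13 in Fed, 1 and 13 in Ern1-LKO and 4 and 12 in WT. The gene marked in all 8 libraries was Dpm1, the catalytic subunit of dolichol phosphate mannose synthase, which supplies the mannose that Alg3, Alg9 and Alg12 use. Its folds were 31.0 and 9.6 in Fasted, 15.0 and 15.0 in Fed, 5.2 and 18.5 in Ern1-LKO, and 6.5 and 16.8 in WT. Of 12 oligosaccharyltransferase genes, 11 and 8 had a peak in Fasted, 12 and 11 in Fed, 5 and 10 in Ern1-LKO and 11 and 11 in WT. Stt3b, a catalytic subunit, and Rpn2 and Ddost, which are accessory subunits, were marked in all 8.

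Among 7 genes of glucosidases and the calnexin cycle, 7 had a peak in each Fasted and each Fed library, 3 and 7 in Ern1-LKO and 6 and 7 in WT. The lectin chaperones Canx and Calr and their partner disulfide isomerase Pdia3 were marked in all 8. Among 10 genes that supply sugar nucleotides the counts were 9 and 3 in Fasted and 10 and 9 in Fed. They were 1 and 7 in Ern1-LKO and 7 and 9 in WT. The 3 of 10 in Fasted replicate 2 lay below the 43.5% of all genes. Uap1, which makes the sugar nucleotide that Dpagt1 uses, was marked in all 8. ER folding and translocation genes, a list of 14 that includes Creld2 and Sec61b, had 14 and 13 in Fasted, 14 and 14 in Fed, 14 and 13 in Ern1-LKO and 14 and 14 in WT, and all but Sec61b were marked in all 8. Among 698 top peaks these folding genes numbered 13 and 10 in Fasted and 14 and 13 in Fed. They numbered 14 and 9 in Ern1-LKO and 14 and 13 in WT. The 10 assembly enzymes numbered 1 to 3 in any library, where 2.31% to 3.94% of all genes had a peak. The lists are of different sizes, and both count the peak shared by Alg12 and Creld2 and the peak shared by Alg2 and Sec61b. No test of the difference was made.

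The genes whose pattern was most like the median of the 10 were Zfhx2, Cars2 and Plin5. Likeness was the mean absolute difference, over the 8 libraries, between the percentiles of their strongest peaks and the members' median, with 0 for no peak, and it was 2.45, 2.8 and 2.89 percentage points. The members' median was 83.0% and 0% in Fasted, 95.8% and 84.6% in Fed, 0% and 60.2% in Ern1-LKO and 27.2% and 89.0% in WT. Cars2 encodes a mitochondrial cysteinyl-tRNA synthetase and Plin5 a lipid droplet protein.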

How the data were processed

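XBP-1 chromatin immunoprecipitation was measured in 8 libraries, and 2 inputs entered only through the peak calls. Per the submitters' processing notes, the tools include MACS2 2.2.1, Bowtie2 2.2.5, FastQC 0.11.3 and bcl2fastq, with mm10 as the build, while the file headers name MACS 2.1.1.20160309, single-end tags of 50 or 51 bp, 1 tag kept per position and a q cutoff of 0.05. The authors deposited 8 lists, 1 per library, and 4 lists of the pooled libraries of a group. Each peak carries, per the file headers, a pileup signal (used in no test), a −log10 q-value, a −log10 p-value (not used) and a fold enrichment, the ratio to the local background.

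Summits were matched to RefSeq gene spans with Python 3.11.15 and pandas 2.3.3, and the matching was tested on simulated data. Counts of genes were compared with exact permutation tests over libraries. All 10 genes are reported. Genes of other lists are named where marked in all 8 libraries, or as neighbours sharing a peak, and the 3 most similar genes by percentile. The genes, lists and tests were chosen with earlier results of these data known. Alternatives were stricter −log10 q (5, 10) and fold (5) limits, 1 kb windows, overlap of peaks by 1 bp or 50%, pooled lists, a block for the replicate number, leaving out single libraries, and other numbers or orders of top peaks. Reads and a genome sequence were not used here.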

Additional observations from a re-analysis of the deposited data

How the results depend on the processing

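For genes marked in both libraries, the Fasted count of 4 became 9 with the authors' pooled list and ran from 4 to 9 without 1 replicate. In Fed the count of 9 became 5 within 1 kb of an annotated start, which 7 of the 10 genes have, and ran from 9 to 10 without 1 replicate. In Ern1-LKO the count of 2 became 1 within 1 kb of a gene end, 1 within 1 kb of an annotated start, 1 where peaks had to overlap by 1 bp and 1 by 50%, 7 with the pooled list, and 3 to 7 without 1 replicate. In WT the count of 5 became 2 within 1 kb of an annotated start and 5 to 9 without 1 replicate. The Fasted minus Fed difference ran from -3.5 to 0 genes without 1 replicate (the 0 at 47357 top peaks, and -0.5 with 19237 kept), and the Ern1-LKO minus WT difference from -1.5 to 0.5, where the sign turned without Ern1-LKO replicate 2 (0.5). Its -1.5 came at 6258 top peaks and also with 698 kept. With all peaks of each library the differences were -3 and -2 genes. The Fed-only count of 1 became 0 with 19237 top peaks, 0 within 1 kb of a gene end and 0 with 698 top peaks (chosen after seeing the data), and 1 to 5 without 1 replicate. The WT-only count ran from 0 to 2 without 1 replicate. For these Fed-only and WT-only counts the share of all genes without 1 replicate was not computed. The cause of these shifts was not tested. Under the other settings, counts stayed within 1.5 times and differences kept their sign.

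The labels do not say that equal replicate numbers mark a shared animal or day. With the replicate number as a block the differences were -2 genes for Fasted minus Fed and -0.5 for Ern1-LKO minus WT (exact sign-flip test, p = 0.5 and 1, smallest possible 0.5). Deviations of same-numbered libraries from their group means correlated at 0.1 across 21900 genes in Fasted and Fed, and at 0.68 in Ern1-LKO and WT. In both Ern1-LKO and WT replicate 1 had the shorter list (698 and 6258 peaks, against 30796 and 30327). In both Fasted and Fed it had the longer list. A pairing of libraries and a shared order of list length therefore cannot be told apart. Genes are not independent replicates. Where a list is short, a missing peak means that none was called, not that XBP-1 was absent.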
